A study of Mus musculus with 5 samples.

Results

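The genes described here were 4 chemokines of the CC family that draw monocytes, Ccl2, Ccl7, Ccl8 and Ccl12, and the receptor gene Ccr2. They were chosen by symbol, and each symbol matched 1 gene in each library, 5 of the 55450 genes counted. The study compared C57BL/6J mouse cortex after traumatic brain injury (TBI) with cortex of sham-operated mice by droplet single-cell RNA sequencing. There was 1 library of the injury site at each of days 1, 3, 7 and 14 after TBI and 1 sham library. Only the titles of the injured libraries give a place, the site of injury, and the place sampled in sham is not stated in the sources used here. Age, sex and how many mice made up each library are likewise not given there. All animals carried the same labelled genotype, and no transgene or drug is named in the sources used here. With 1 library per group no difference between groups could be tested, so every comparison below is between libraries. The 95% intervals, exact Poisson for levels, exact conditional binomial for ratios and Clopper-Pearson for shares, cover counting error only, and all 4 injured libraries are set against the same sham library.

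CC chemokines are small secreted proteins that cells release after injury or infection. Ccr2 is the receptor through which classical, Ly6c2-positive monocytes leave the bone marrow and enter inflamed tissue, and Ccl2 and Ccl7 are its main ligands in the mouse. Ccl12 is a mouse chemokine that also acts through Ccr2, and mouse Ccl8 is also known as a ligand of Ccr8, a chemokine receptor of T cells. In the injured brain, microglia, astrocytes and incoming macrophages are all known sources of Ccl2.

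The deposited tables held 9895 to 14159 barcodes and 11279455 to 129161094 counted molecules (unique molecular identifiers, UMIs) per library, and 55012 of 60574 barcodes were kept. Median UMIs per barcode were 773, 1755.5, 3256, 6581 and 8558 in the sham, day 1, day 3, day 7 and day 14 libraries, so depth was higher at each later time and its effect cannot be told apart from that of time. Levels are therefore given as counts per 1000000 UMIs of a cell class (CPM), and shares of cells after each cell was thinned to 500 UMIs. In a 3′ library a UMI counts a molecule whatever its length, so CPM were compared between genes with no length term. The cells formed 32 clusters, built without the 5 genes and each named "-like" from a marker list. The main class, microglia/macrophages, joins the microglia-like and the monocyte/macrophage-like clusters and held 4520, 4054, 3715, 6660 and 5771 cells in the 5 libraries. Its microglia-like cells lay mostly in clusters 0 and 7 in sham, 8 at day 1, 16 at day 3, 9 and 27 at day 7, and 17 and 26 at day 14, and its monocyte/macrophage-like cells mostly in cluster 24 at day 3, 30 at day 7 and 25 at day 14. Astrocyte-like cells lay mostly in clusters 3 and 6 in sham, 4 and 6 at day 1, 5 at days 3 and 14 and 29 at day 7, and T/NK cell-like cells in cluster 31 at day 7 and 19 at days 3 and 14. A cluster and a library thus largely coincide. Of the barcode sequences, 383 occurred in more than 1 library. Genes of the dissociation response, which papain digestion is known to induce, averaged 20.8, 11.0, 8.74, 6.39 and 5.04 UMIs per thinned microglia/macrophage in the same order.

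The 4 chemokine genes lie together on mouse chromosome 11, all on the plus strand, and span 81229 bases from the start of Ccl2 to the end of Ccl8. On GRCm38, Ccl2 (ENSMUSG00000035385) is at chr11:82035571-82037453, Ccl7 (ENSMUSG00000035373) at chr11:82045712-82047525, Ccl12 (ENSMUSG00000035352) at chr11:82101845-82103400 and Ccl8 (ENSMUSG00000009185) at chr11:82115185-82116799, with Ccl11 between Ccl7 and Ccl12. Ccr2 (ENSMUSG00000049103) is at chr9:124101950-124113557 on the plus strand. Longest exact matches between the annotated chemokine transcripts were 11 to 23 bases, and 8 to 13 bases in the last 400 bases, where a 3′ library reads. The 250 bases upstream of Ccl8 and Ccl12 are shown because these neighbours had their highest levels at opposite ends of the injured series, day 14 and day 1. They lie at chr11:82114935-82115184 and chr11:82101595-82101844 on the plus strand (RefSeq, GRCm38.p6), just outside the transcripts, with capitals marking TATAAA.
Ccl8: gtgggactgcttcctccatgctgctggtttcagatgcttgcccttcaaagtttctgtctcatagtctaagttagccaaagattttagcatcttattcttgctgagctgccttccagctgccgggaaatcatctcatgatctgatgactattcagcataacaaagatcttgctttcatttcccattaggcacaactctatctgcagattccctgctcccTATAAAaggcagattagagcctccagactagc
Ccl12: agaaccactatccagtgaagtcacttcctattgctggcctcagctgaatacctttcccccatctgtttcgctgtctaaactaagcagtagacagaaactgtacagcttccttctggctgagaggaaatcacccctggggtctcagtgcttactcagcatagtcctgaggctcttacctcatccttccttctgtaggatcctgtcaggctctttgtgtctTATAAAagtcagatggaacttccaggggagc
The TATAAA match began 32 bases before the start of Ccl8 and 31 before that of Ccl12, and 12.4% of 32851 mouse promoter windows held this motif on either strand. The AP-1 motif TGANTCA, the interferon-stimulated response element core and the gamma-activated sequence TTCNNNGAA, found in 6.75%, 2.98% and 7.02% of the windows on either strand, had 0 matches in the windows of Ccl8, Ccl12 and Ccr2. The Ccr2 window, chr9:124101933-124102182, lies before the RefSeq start but mostly inside the gene as GENCODE places it. Such windows were not used for Ccl2 and Ccl7.

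In microglia/macrophages the ligands peaked at different times, Ccl2, Ccl7 and Ccl12 in the day 1 library and Ccl8 in the day 14 library. At day 1, 4 of the 5 genes were at least 2-fold higher than in sham (Ccl2, Ccl7, Ccl8 and Ccl12). Ccl8 had only 30 UMIs there, 16 of them in 1 cell, against 1 UMI in sham. At least 10 CPM on average in the compared pair was reached by 3 of the 5 (Ccl2, Ccl7 and Ccl12), and all 3 were at least 2-fold higher. Of all 8744 genes at that level 7.95% were at least 2-fold higher and 10.3% at least 2-fold lower. At day 3, 2 of 5 were at least 2-fold higher (Ccl7 and Ccl8) and 0 lower, with all 5 at the minimum level and 10.0% of genes higher and 24.0% lower. At day 7, 1 was higher (Ccl8, below the minimum level) and 1 lower (Ccl2), with 2 at the minimum level and 4.80% and 14.6% of genes higher and lower. At day 14, 3 were higher (Ccl7, Ccl8 and Ccr2) and 1 lower (Ccl2), with all 5 at the minimum level, against 6.47% of genes higher and 26.4% lower. The median log2 ratio to sham over all such genes was -0.06, -0.34, -0.37 and -0.55 at days 1, 3, 7 and 14. Trimmed-mean (TMM) scaling moved every ratio by 0.10, 0.38, 0.40 and 0.69 in that order and moved the higher genes, as a share of all genes past 2-fold, to 53.3%, 56.7%, 62.1% and 67.4%, against 43.6%, 29.5%, 24.8% and 19.7% in CPM.

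**Figure D1:**
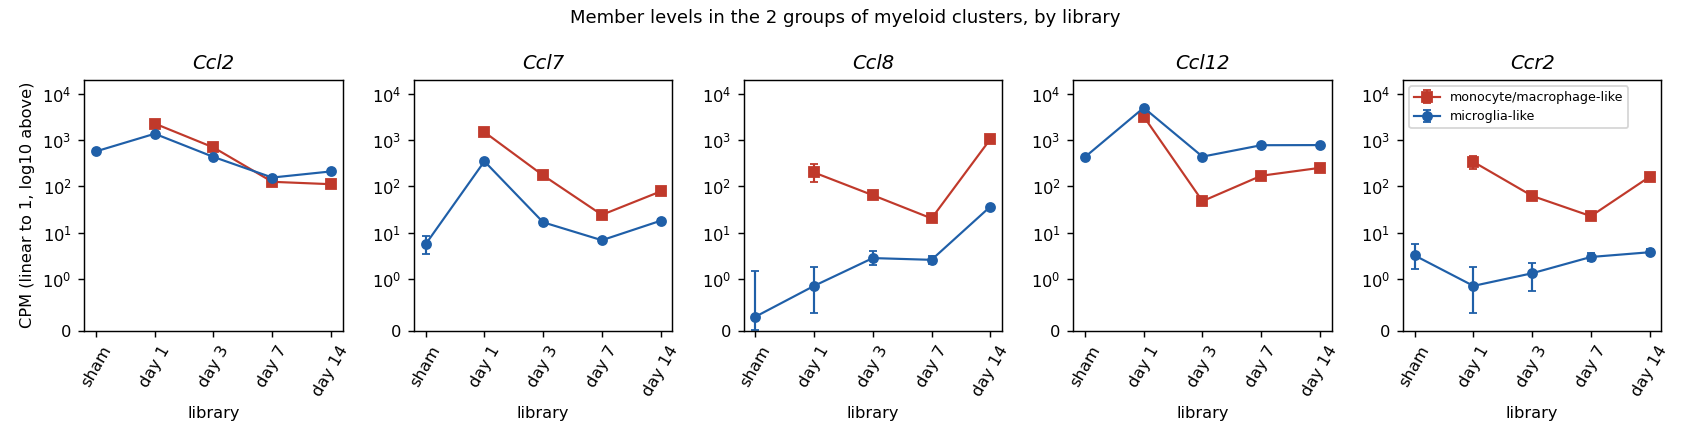
CPM (symmetric log axis, linear below 1) of each gene in monocyte/macrophage-like (red squares) and microglia-like (blue circles) cells of the 5 libraries, with 95% counting intervals; sham held under 50 monocyte/macrophage-like cells and has no red point. Ccl12 stood highest in the day 1 library, Ccl8 in the day 14 library, and Ccr2 was low in microglia-like cells of all 5.

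Ccl2, the best studied ligand of Ccr2, was already well counted in the sham library and highest at day 1. Its levels in microglia/macrophages were 571, 1381, 505, 150 and 176 CPM in sham and at days 1, 3, 7 and 14 (2120 to 12394 UMIs). On the log2 scale, day 1 was 1.28 (1.21 to 1.34) above sham, and the log2 ratios of days 3, 7 and 14 were -0.18 (-0.25 to -0.11), -1.93 (-2.00 to -1.86) and -1.69 (-1.76 to -1.63). After thinning, a Ccl2 UMI was found in 14.2%, 33.7%, 13.5%, 5.62% and 6.38% of microglia/macrophages, beside 0.8%, 2.48%, 0.792%, 0.228% and 0.439% of oligodendrocyte-like cells, a class that should lack it. The day 1 library stood above sham and the last 2 below it, while the day 3 ratio was small and turned to 0.21 with TMM scaling. Among microglia/macrophages of sham, Ccl2 was lowest, 213 CPM, in cells with under 5 dissociation-response UMIs and highest, 681 CPM, in those with 20 or more. In the day 1 library the same bins held 1209 and 1276 CPM, so Ccl2 was higher at day 1 than in sham in the bin of least and in the bin of most dissociation response. At days 3, 7 and 14 the bin of least response held 463, 91.8 and 175 CPM, against 213 CPM in 141 sham cells. In that bin day 3 thus stood above sham and day 14 near it. The bins have no counting intervals, and with so few sham cells the direction at day 14 is not known. Monocyte/macrophage-like cells held 2267, 692, 126 and 112 CPM at days 1, 3, 7 and 14, against 1369, 433, 155 and 211 CPM in microglia-like cells of the same libraries. The first pair of days had more Ccl2 in monocyte/macrophage-like cells and the later pair more in microglia-like cells.

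Ccl7, a second ligand of Ccr2, was almost absent from sham and had the largest ratio of the 5 genes at day 1. Microglia/macrophages held 6.46, 364, 60.2, 10.4 and 38.9 CPM in sham and at days 1, 3, 7 and 14, from 24, 2973, 995, 518 and 2733 UMIs. Against sham the log2 ratio was 5.82 (5.24 to 6.46) in the day 1 library, and 3.22 (2.64 to 3.87), 0.68 (0.09 to 1.34) and 2.59 (2.01 to 3.23) in those of days 3, 7 and 14. The level was thus highest at day 1, lowest of the injured libraries at day 7 and higher again at day 14, by 1.91 on the log2 scale over day 7. In each injured library it was higher in monocyte/macrophage-like cells, which held 1485, 173, 24.4 and 78.1 CPM at days 1, 3, 7 and 14, against 348, 16.8, 6.91 and 18.2 CPM in microglia-like cells. In microglia-like cells alone the day 3 and day 14 ratios to sham were 1.57 and 1.68. Expression was concentrated, with 95 of 4054 cells holding 50% of the Ccl7 UMIs at day 1 and 48 of 5771 at day 14.

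Ccl12 was the most abundant of the 5 genes at day 1, and of the ligands it had the largest ratio between days 1 and 3. Microglia/macrophages held 429, 4947, 331, 656 and 597 CPM in sham and at days 1, 3, 7 and 14 (1593 to 41928 UMIs). The log2 ratio was 3.53 (3.46 to 3.6) at day 1, and the level stood 15-fold lower at day 3 than at day 1. Ratios at days 3, 7 and 14 were -0.38 (-0.46 to -0.29), 0.61 (0.54 to 0.69) and 0.48 (0.40 to 0.55). Only the day 1 library was past 2-fold from sham in CPM. With TMM scaling the ratios of days 7 and 14 became 1.01 and 1.17, both past 2-fold, and the day 3 ratio turned positive with that scaling and in microglia-like cells alone. Ccl12 was a gene of the microglia-like cells, with 4972, 439, 774 and 779 CPM at days 1, 3, 7 and 14, against 3213, 48.1, 170 and 252 CPM in monocyte/macrophage-like cells. Among thinned microglia/macrophages, 13.1%, 68.2%, 12.5%, 20.5% and 19.4% had a Ccl12 UMI in sham and at days 1, 3, 7 and 14, beside 0.640%, 4.11%, 0.792%, 1.37% and 0.731% of oligodendrocyte-like cells. The unthinned shares, 18.5%, 87.6%, 43.8%, 64.0% and 69.6%, followed depth as well. At day 1, 579 of 4054 cells, 14.3%, held 50% of the UMIs, so that Ccl12 was spread over far more cells than Ccl7. Ccl12 at day 1 was higher in cells of low than of high dissociation response (5580 CPM in the lowest bin and 4186 CPM in the highest), whereas in sham those bins had 152 and 482 CPM. In the lowest bin days 3, 7 and 14 held 408, 603 and 552 CPM of Ccl12, all above the 152 CPM of 141 sham cells, without counting intervals.

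Ccl8 was the late ligand. In microglia/macrophages it had 1, 30, 331, 306 and 27095 UMIs in sham and at days 1, 3, 7 and 14, or 0.269, 3.67, 20.03, 6.11 and 386 CPM. The day 14 library was 63.1-fold above day 7 (log2 5.98, 5.82 to 6.15). Its log2 ratio to sham, 10.48 (8.01 to 15.79), rests on 1 sham UMI, and became 7.18 with a minimum of 1000 UMIs per cell and 7.08 in microglia-like cells alone. Each injured library was above sham, but with wide intervals at days 1, 3 and 7 (log2 1.18 to 9.12, 3.73 to 11.53 and 2.02 to 9.81). At day 14, monocyte/macrophage-like cells held 1046 CPM (1033 to 1059) and 90.3% of all Ccl8 UMIs, against 36.7 CPM in microglia-like cells. A few cells carried it: 45 of 5771 microglia/macrophages held 50% of the UMIs, and 1 cell held 747. Dissociation response moved little with it, at 384, 412 and 303 CPM in the bins with 0 to 4, 5 to 9 and 10 to 19 such UMIs at day 14. In terms of cells, 4.19% of thinned microglia/macrophages had a Ccl8 UMI at day 14, against 0.0221% in sham and 0.105% at day 7.

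**Figure D2:**
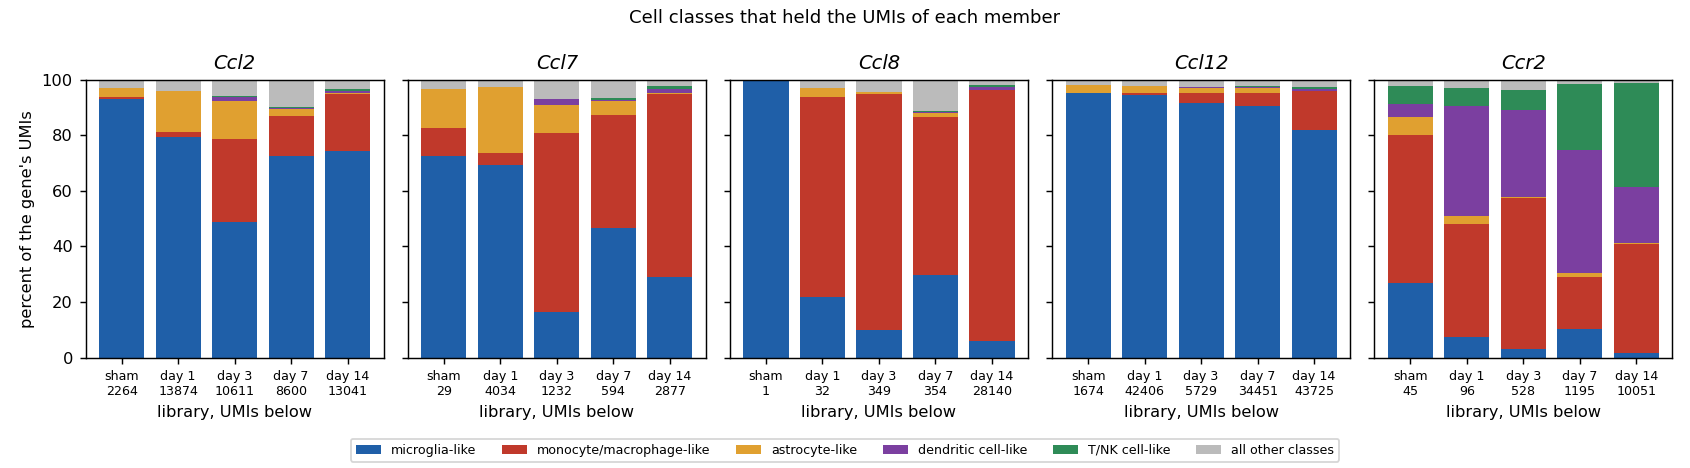
Percent of each gene's UMIs (vertical axis) held by 6 groups of cell classes in each library, with the UMIs of the whole library written below the bars. Microglia-like cells held 81.9% to 95.2% of the Ccl12 UMIs, Ccl8 UMIs from day 1 on lay mostly in monocyte/macrophage-like cells, and dendritic cell-like cells held 31.3% to 44.3% of the Ccr2 UMIs at days 1 to 7 and 20.2% at day 14; sham Ccl8 is 1 UMI.

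Microglia/macrophages held most UMIs of each ligand in each library. Their share of Ccl2 was 93.6%, 81.3%, 78.6%, 87.1% and 95.04% in sham and at days 1, 3, 7 and 14, and that of Ccl12 95.2% to 95.9%. Within them, monocyte/macrophage-like cells held 30.0% of Ccl2 at day 3, when microglia-like cells held 48.7%. For Ccl7 the monocyte/macrophage-like share was 4.24%, 64.4%, 40.4% and 65.9% at days 1, 3, 7 and 14. The source of Ccl7 was thus mainly microglia-like at day 1 and mainly monocyte/macrophage-like at days 3 and 14. The day 1 library had only 56 monocyte/macrophage-like cells, so their share at that time reflects few cells with high levels.

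Astrocyte-like cells were a second source of Ccl2 and Ccl7, and their Ccl12 lay near the range of microglia genes. Ccl2 stood at 24.9, 249, 145, 11.3 and 19.2 CPM in these cells in sham and at days 1, 3, 7 and 14, with log2 ratios to sham of 3.32 (3.00 to 3.67) at day 1 and 2.54 (2.22 to 2.89) at day 3. Ccl7 stood at 1.24, 118, 12.3, 1.83 and 1.07 CPM, with ratios of 6.56 (5.20 to 8.44) at day 1 and 3.31 (1.91 to 5.20) at day 3. Both stood highest at day 1 and next at day 3. The day 3 levels depended on the clustering: at resolution 2, 768 day 3 cells with 1190 Ccl2 and 114 Ccl7 UMIs (246 and 23.5 CPM) lay in a cluster named ependymal-like, which passed 7 of 9 ependymal and 16 of 16 astrocyte markers. The main astrocyte-like cluster of day 3 at that resolution, with 1293 cells, held 46.3 CPM of Ccl2 and 1.39 CPM of Ccl7 (7 UMIs). Free RNA from lysed microglia reaches other droplets, so each level was set beside those of 8 microglia genes (C1qa, C1qb, C1qc, Cx3cr1, Csf1r, P2ry12, Trem2 and Gpr34) in the same cells. As a percent of the microglia/macrophage level, astrocyte-like Ccl2 was 18.0% at day 1 and 28.8% at day 3 and Ccl7 32.3% and 20.4%, while the 8 genes lay between 1.5% and 3.2% at day 1 and between 2.3% and 5.0% at day 3. Ccl12, at 3.4%, 2.5%, 2.7%, 5.8% and 3.9% in sham and at days 1, 3, 7 and 14, lay inside the range of those genes or just below it. Ccl2 and Ccl7 were nearer to or below the range later, at 7.6% and 17.7% (31 UMIs) at day 7 and 10.9% (36 UMIs) and 2.7% at day 14, where the 8 genes spanned 4.9% to 6.3% and 4.6% to 7.6%. In sham Ccl2 too, at 4.4%, lay inside that range of 3.5% to 4.6%. In oligodendrocyte-like cells at day 1, Ccl2, Ccl7 and Ccl12 were at 2.9%, 2.9% and 2.4%, beside 1.5% to 2.2% for the 8 genes.

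**Figure D3:**
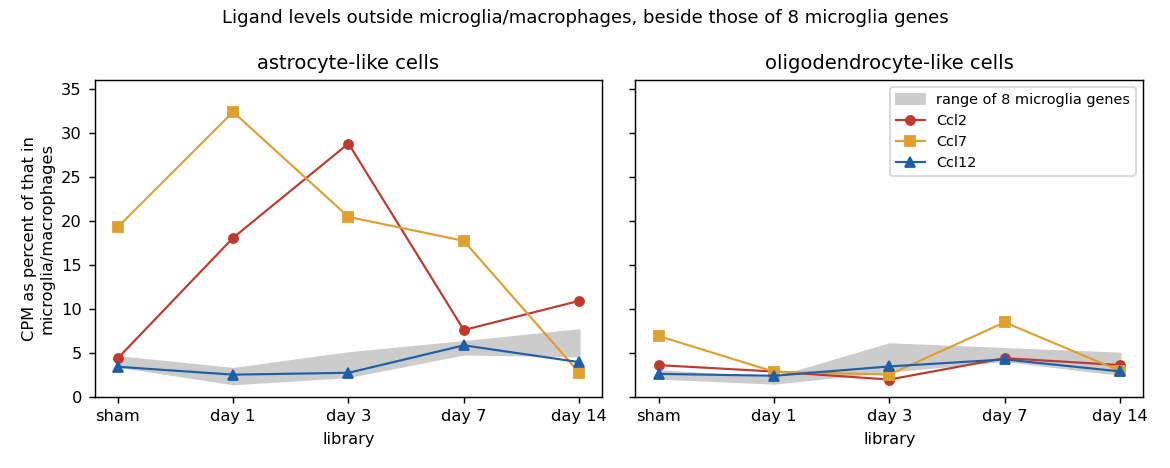
Level of Ccl2, Ccl7 and Ccl12 in astrocyte-like (left) and oligodendrocyte-like (right) cells as a percent of their level in microglia/macrophages of the same library, with the range of 8 microglia genes in grey. Ccl2 and Ccl7 stood far above the grey range in astrocyte-like cells at days 1 and 3, and Ccl12 did not; sham Ccl7 rests on 4 UMIs in astrocyte-like and 1 in oligodendrocyte-like cells.

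Astrocyte-like cells with a Ccl2 or Ccl7 UMI at day 1 differed less in microglial RNA from the other astrocyte-like cells than those with a Ccl12 UMI did. The 8 microglia genes summed to 648 CPM in the 280 cells with a Ccl2 UMI after thinning and 456 CPM in those without, and to 609 and 463 CPM in cells with and without Ccl7. In cells with a Ccl12 UMI the same genes summed to 2133 CPM, against 389.8 CPM in those without, and in sham cells with a Ccl2 UMI to 4483 CPM, against 1121 CPM. Ccl2 and Ccl7 were also found in the same astrocyte-like cells: 55 of 161 with Ccl7 at day 1 had Ccl2 (34.2%), against 5.09% of those without Ccl7. Ccl12 was in 1.24% of the Ccl7 cells and 4.81% of the others. The clusters differed, with 274 CPM of Ccl2 and 136 of Ccl7 in the 3300 day 1 cells of cluster 4, against 55.4 and 19 CPM in the 1068 of cluster 6, at 118 and 165 CPM of Ccl12. At day 3, 15 astrocyte-like cells held 50% of the Ccl2 UMIs, compared with 58 at day 1.

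**Figure D4:**
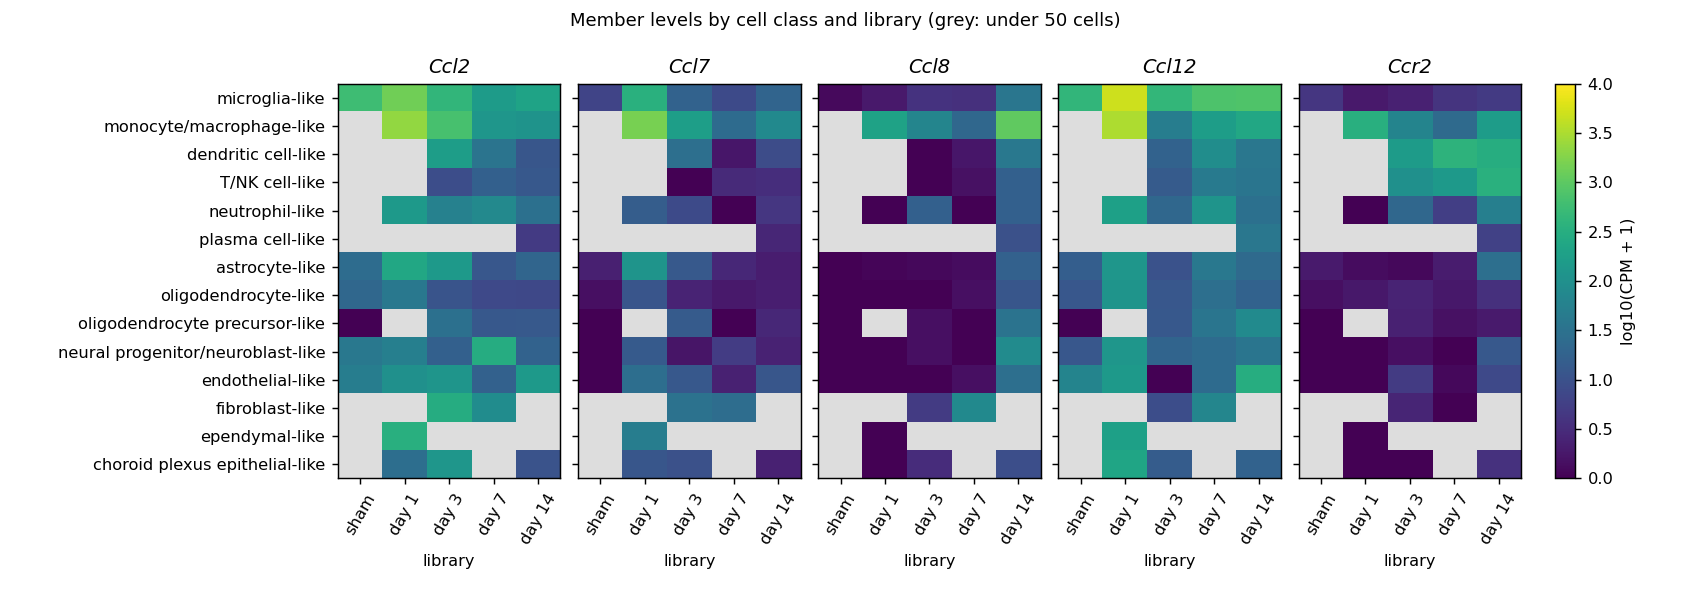
Colour gives log10(CPM + 1) of each gene in 14 cell classes (rows) of the 5 libraries (columns), with grey for classes under 50 cells. Ccl2 was seen at lower levels in many non-myeloid classes, Ccl8 above 30 CPM outside myeloid cells in few, and Ccr2 above 100 CPM only in monocyte/macrophage-like, dendritic cell-like and T/NK cell-like cells.

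Some of the high ligand levels in other classes came mainly from single cells. Neural progenitor/neuroblast-like cells stood highest for Ccl2 at day 7, 302 CPM, but 547 of their 576 UMIs came from 1 of 185 cells and the level without it was 15.9 CPM. The 30 Ccl8 UMIs of day 7 fibroblast-like cells (77.9 CPM) lay in 1 cell, as did 56 of the 81 Ccl2 UMIs of day 1 ependymal-like cells (332 CPM). Fibroblast-like cells at day 3 held 294 CPM of Ccl2 from 374 UMIs, 58.2% of the microglia/macrophage level, beside 1.0% to 7.6% for the 8 microglia genes. Without the highest of the 93 cells the level was 231 CPM. Endothelial-like cells at day 14 had 312 CPM of Ccl12, but the 8 microglia genes stood there at 40.9% to 59.1% of their microglia/macrophage level and Ccl12 at 52.3%. In order of level at day 1, Ccl2 stood at 2267 CPM in monocyte/macrophage-like, 1369 in microglia-like, 332 in ependymal-like, 249 in astrocyte-like, 147 in neutrophil-like, 99.1 in endothelial-like, 52.6 in neural progenitor/neuroblast-like, 39.6 in oligodendrocyte-like and 26.8 CPM in choroid plexus epithelial-like cells. From neutrophil-like cells downwards, each class overlapped with its neighbour in its interval. For Ccl12 at day 1, the classes below microglia-like and monocyte/macrophage-like cells formed 1 group of overlapping neighbours from 225 CPM in choroid plexus epithelial-like to 118 in oligodendrocyte-like cells.

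Ccr2, the receptor, was found mainly in monocyte/macrophage-like, dendritic cell-like and T/NK cell-like cells and was scarcely counted in microglia-like cells, which held 3.25, 0.869, 1.34, 3.01 and 3.81 CPM in sham and at days 1, 3, 7 and 14. Monocyte/macrophage-like cells held 339 CPM (241 to 463, 39 UMIs) at day 1, 62.5 at day 3, 22.9 at day 7 and 162 CPM (157 to 167) at day 14. Dendritic cell-like cells held 156 (133 to 182), 382 (350 to 416) and 313 CPM (299 to 327) at days 3, 7 and 14. T/NK cell-like cells held 102 (72.5 to 139), 142 (126 to 159) and 344 CPM (333 to 355) at the same times. Dendritic cell-like and T/NK cell-like cells were thus the highest classes at days 3, 7 and 14, monocyte/macrophage-like cells came next, and neutrophil-like cells followed at 20.5, 4.47 (1 UMI) and 51.7 CPM. This order turned at clustering resolution 2, where dendritic cell-like clusters held 0 and 44.2 CPM at days 3 and 14 (28 and 327 cells), against 79.1 and 199 CPM in macrophage-named clusters, and was kept at day 7 (343 against 31.5 CPM). At day 3 the intervals of dendritic cell-like and T/NK cell-like cells overlapped. Oligodendrocyte-like cells had at most 2.58 CPM. After thinning, 16.0% (14.4% to 17.8%) of T/NK cell-like, 9.71% of dendritic cell-like, 8.87% of monocyte/macrophage-like, 0.395% of microglia-like and 0.0488% of oligodendrocyte-like cells had a Ccr2 UMI at day 14.

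The number of Ccr2 UMIs was 45, 96, 528, 1195 and 10051 in the 5 libraries. In sham, 24 of the 45 lay in 15 monocyte/macrophage-like cells. At day 14 monocyte/macrophage-like cells held 39.0% of the UMIs with 12.7% of the cells, T/NK cell-like cells 37.1% with 16.4%, and dendritic cell-like cells 20.2% with 5.35%. At day 7 the dendritic cell-like share was 44.3%, that of T/NK cell-like cells 23.8% and that of monocyte/macrophage-like cells 18.8%. The border between monocyte/macrophage-like and dendritic cell-like clusters decided part of this. The dendritic cell-like cluster passed 12 of 14 dendritic and 13 of 21 monocyte/macrophage markers. With called doublets kept, monocyte/macrophage-like cells held 7.20% and dendritic cell-like cells 49.6% of the Ccr2 UMIs at day 14, and at clustering resolution 2 macrophage-named clusters held 58.6% and dendritic cell-like ones 0.716%. At that resolution 851 day 14 cells formed 1 cluster with 467 CPM of Ccr2, led by H2-Eb1, H2-Aa, H2-Ab1 and Cd74, genes of antigen presentation, and it was named border-associated macrophage-like from 8 of 13 markers. Macrophage-named and dendritic cell-like clusters joined held 59.3% at 193 CPM in the main clustering and 56.8% to 59.9% at 179 to 193 CPM over the 5 other clusterings. In microglia/macrophages as a whole Ccr2 had 9.69, 5.63, 18.3, 6.91 and 58.3 CPM, with log2 ratios to sham of -0.78 (-1.44 to -0.11) at day 1, 0.92 (0.42 to 1.46), -0.49 (-0.98 to 0.05) and 2.59 (2.12 to 3.11) at days 3, 7 and 14. The day 14 value was 0.52 with doublets kept, 1.49 with at least 1000 UMIs per cell, 0.23 in microglia-like cells alone and 2.97 with dendritic cell-like clusters joined. The day 3 ratio was -0.13 with at least 1000 UMIs per cell and -1.28 in microglia-like cells alone.

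Ccl8 and Ccr2 were highest in different subsets of monocyte/macrophage-like cells at day 14, though cells with both markers held much of each. Cells were split by Mrc1, a mannose receptor of border-associated and alternatively activated macrophages, and Ly6c2, a surface marker of classical monocytes, in unthinned cells with a median of 12934 to 16184.5 UMIs per subset. The 519 cells with Mrc1 only held 2847 CPM of Ccl8 (2810 to 2884), the 115 with both 978, the 205 with Ly6c2 only 57.3 and the 626 with neither 63.5 CPM. Ccr2 stood at 162, 517, 277 and 66.0 CPM in the same order. Ccl8 was thus highest with Mrc1 alone and Ccr2 with both markers, the subset that stood next for Ccl8. Both markers were chosen after values had been seen, and Mrc1 was the gene most similar to Ccl8 over classes and libraries (r = 0.78). A high Ccl8 level with Mrc1 is therefore not independent of that choice. At clustering resolution 2 the cluster of 851 cells with 467 CPM of Ccr2 also held 688 CPM of Ccl8. Ccl7 and Ccl12 were also highest with Mrc1 only, at 168 and 503 CPM, against 21.9 and 105 CPM with Ly6c2 only. At day 3 Ccl2 and Ccl7 stood at 943 and 202 CPM with Ly6c2 only (246 cells), and Ccl2 at 673 CPM with Mrc1 only (107 cells). Ccl8 stood at 152 CPM with Mrc1 only (116 UMIs), against 47.7 with Ly6c2 only (64 UMIs). At day 7 the 107 cells with Mrc1 only had 74.0 CPM of Ccl8 (127 UMIs), against 8.96 CPM in the 478 with neither. These Ccl8 levels can rest on a few cells, since 5 of 763 monocyte/macrophage-like cells held 50% of its UMIs at day 3 and 4 of 642 at day 7.

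**Figure D5:**
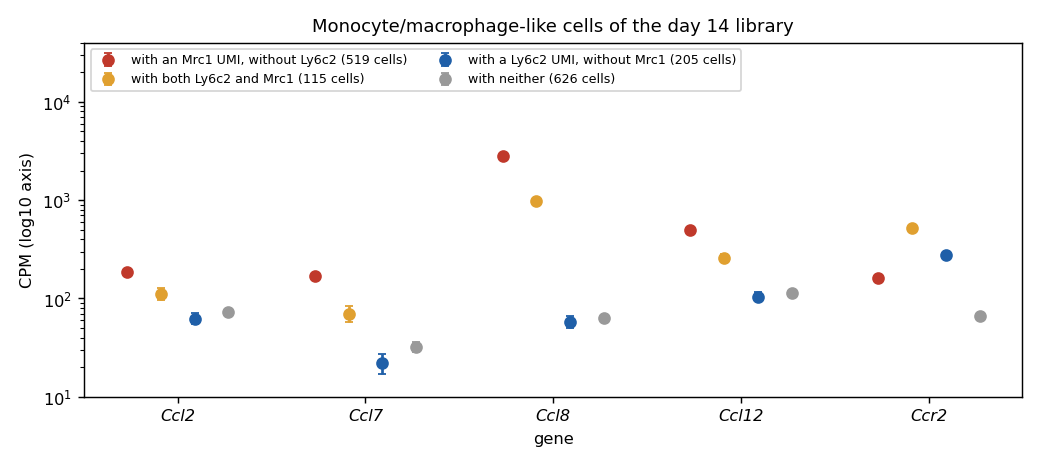
CPM (log10 axis) of the 5 genes in monocyte/macrophage-like cells of the day 14 library, split by whether a cell had Mrc1 and Ly6c2 UMIs, with 95% counting intervals. The 4 ligands were highest in cells with Mrc1 only, and Ccr2 in cells with both markers.

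After thinning, Ccl8 and Ccr2 were seldom found in the same cell. At day 14, 66 of 198 monocyte/macrophage-like cells with Ccl8 had Mrc1 (33.3%), against 6.39% of those without Ccl8, and 2.02% had Ccr2, against 9.94%. The pair with Mrc1 is again not independent of the choice of that marker. Of 130 cells with Ccr2, 13.1% had Ly6c2, against 2.77% of those without, and 3.08% had Ccl8, against 14.5%. Ccl7 went with Ccl8, found in 25 of 50 cells with Ccl7 and in 12.2% of those without. Ligand pairs differed between times. At day 1, 62.4% of 348 microglia/macrophages with Ccl7 had Ccl2, against 31.0% without Ccl7, and 72.1% had Ccl12, against 67.8%. At day 3, 51.6% of 64 cells with Ccl7 had Ccl2, against 12.8%, and 6.25% had Ccl12, against 12.7%. The pairs of days 1 and 3 were counted over microglia-like and monocyte/macrophage-like cells together. These numbered 3998 and 56 at day 1 and 2952 and 763 at day 3, and the part of this mix in the differences was not tested. Richer cells show any gene more often even at equal depth, and that part of the differences was not tested either. Among T/NK cell-like cells of day 14, Ccr2 stood at 172 CPM in 406 cells with Cd8a only, a marker of cytotoxic T cells, 365 in 656 with Cd4 only, of helper T cells, and 451 CPM in 782 with neither.

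Related receptors and chemokines were set beside the 5 genes. Ccr1, of neutrophils and monocytes, had 17.0, 53.1, 37.9, 22.3 and 15.7 CPM in microglia/macrophages in sham and at days 1, 3, 7 and 14. In neutrophil-like cells it had 1216, 737, 644 and 384 CPM at days 1, 3, 7 and 14. Ccr3 had at most 1.62 CPM in microglia/macrophages. The decoy receptor Ackr1, which takes up chemokines on vessels, was found in endothelial-like cells at 12.4 (1 UMI), 39.6 (6 UMIs), 86.7, 44.8 and 34.6 CPM. In sham it stood at similar levels in oligodendrocyte precursor-like (18.1 CPM, 1 UMI) and neural progenitor/neuroblast-like cells (11.0 CPM, 4 UMIs). Ackr2 had 1 UMI in microglia/macrophages of all libraries. Of these 4 receptors and decoys, only Ccr1 reached 10 CPM on average in the comparisons of microglia/macrophages with sham, and it was at least 2-fold higher at days 1 and 3, with log2 ratios of 1.65, 1.16, 0.40 and -0.11 at days 1, 3, 7 and 14. In microglia-like cells alone Ccr1 stood at 16.2, 49.9, 16.5, 22.4 and 6.29 CPM, so its day 3 level there was near that of sham. Monocyte/macrophage-like cells held 93.7 CPM of Ccr1 at day 3. Of the other CC chemokines, Ccl6 stood at 128, 157, 254, 97.4 and 206 CPM and Ccl9 at 123, 181, 133, 99.5 and 106 CPM, and neither passed 2-fold in CPM at any time. The log2 ratio of Ccl6 was 1.00 at day 3, just under 2-fold, and 0.69 at day 14, and the TMM shifts given above take both past 2-fold. In microglia-like cells alone Ccl6 stood at 122 CPM in sham, 90.0 at day 3 and 210 at day 14. Monocyte/macrophage-like cells held 682 CPM of Ccl6 at day 3.

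Gene lists chosen with earlier results known were set beside the ligands in microglia/macrophages. Of 14 NF-kB inducers and components, the route by which Ccl2 is classically induced, 3, 2, 1 and 0 were at least 2-fold higher and 0, 4, 3 and 8 lower at days 1, 3, 7 and 14 (medians 0.28, 0.12, -0.08 and -1.09). Over all genes, 7.95%, 10.0%, 4.80% and 6.47% were higher and 10.3%, 24.0%, 14.6% and 26.4% lower, and TMM scaling raises each of these list ratios by the shifts given above. Tnf, an inflammatory cytokine, stood at 204, 964, 719, 233 and 71.4 CPM, and Cd14, the endotoxin co-receptor, at 289, 1383, 296, 228 and 215 CPM, both with a day 1 maximum. Nfkbia, an inhibitor of NF-kB, was highest at day 3, with 959, 1008, 1230 and 1122 CPM in sham and at days 1, 3 and 7 and 346 CPM at day 14. The interferon list had 4 of 11 higher at day 1 (median 0.09), 6 of 12 at day 3 (0.90, with 2 lower), 8 of 12 at day 7 (1.81) and 8 of 12 at day 14 (1.49). Cxcl10, an interferon-induced chemokine, stood at 56.8, 664, 710, 325 and 198 CPM and Isg15, a ubiquitin-like modifier, at 52.0, 108, 107, 177 and 205 CPM. The adhesion list held 1, 3, 0 and 2 higher and 2, 2, 3 and 3 lower genes among 6, 7, 5 and 7 measured at days 1, 3, 7 and 14 (medians -0.20, 0.11, -1.35 and -0.31), and Selplg, the ligand of selectins, had 2323, 540, 507, 566 and 392.2 CPM. The 7 genes of chemokine receptor signalling had 0 higher at any time and 1, 3, 4 and 4 lower (medians -0.40, -0.21, -1.01 and -1.20). The dissociation list had 0 of 20 higher and 7, 16, 14 and 18 lower (medians -0.80, -1.36, -1.75 and -2.20), led by Jun with 5749, 2789, 2840, 2950 and 1278 CPM. Its part in the ligand levels was not tested beyond the bins given above.

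The most similar genes over 50 pairs of class and library, among 10501 genes, differed between the 5. The measure was Pearson r of log2(CPM + 10), and the points share libraries and depth. Ccl2 was nearest to Ccl7 (r = 0.79), Hmox1 (0.77), 3110082I17Rik (0.74), Slc7a8 (0.72) and Hk2 (0.71). Ccl7 was nearest to the scavenger receptor gene Msr1 (0.83), then Ccl2, Cd36 (0.76), Cbr2 (0.72) and Cd163 (0.71). Ccl8 was nearest to Mrc1 (0.78), Ms4a7 (0.76), Pf4 (0.74), Saa3 (0.74) and Aoah (0.72). Ccl12 went with the microglia gene Fcrls and with Tlr1 (0.82 each), Npl (0.81), Ly86 and Gm26778 (0.80 each). Ccr2 was nearest to Runx3 (0.93), Ms4a4c, Itgb7 and Plac8 (0.89 each) and Clec2i (0.87). Between the 5 genes, r was 0.64 for Ccl2 with Ccl12, 0.62 for Ccl7 with Ccl12, 0.47 for Ccl8 with Ccr2, 0.30 for Ccl8 with Ccl12 and 0.03 for Ccl2 with Ccr2.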

How the data were processed

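Single-cell RNA sequencing was done on 5 libraries, sham and TBI days 1, 3, 7 and 14, grouped by title. The authors deposited raw UMI counts per gene and barcode, made with Cell Ranger 4.0.0 per the file headers; among tools listed in the submitters' processing notes are Seurat 3.2.0 and STAR 2.5.37, with GRCm38 (mm10) as build. Totals were 11279455 to 129161094 UMIs per library, so precision is lowest in sham. Barcodes with at least 500 UMIs, 200 genes and at most 20% mitochondrial UMIs were kept (12.7% of day 7 barcodes exceeded that share). Scrublet doublets (3.31% to 9.28%) were removed, using at day 7, where its own threshold marked 0%, the mean threshold of the others. Counts were scaled to 10000, log-transformed and clustered with scanpy 1.11.5 and igraph 0.11.9 (2000 variable genes without the members, 30 components, 15 neighbours, Leiden resolution 1). A cluster was named from at least 3 markers. UMIs were summed per class of at least 50 cells and library; a count of 0 took a floor of 3 UMIs in ratios. No group test was possible; ratio intervals were checked on simulated data. TMM factors came from edgeR 4.0.16. Named genes are the members, the 5 most alike genes per member (at least 50 CPM in 1 pair), the 3 highest of each list and the related receptors, except for some genes that are not reported here. Other genes named for comparison (Mrc1, Ly6c2, Cd4, Cd8a, the 8 microglia genes and the leading genes of 1 cluster) were chosen after values had been seen. The members and lists were chosen with earlier results of these data known. Other filters, clusterings, scalings and thinning depths were tried. Gene positions are from GENCODE and promoter sequences from RefSeq, where 3 of the 5 members matched.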

Additional observations from a re-analysis of the deposited data

Results flagged for a closer look

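At day 7, the Ccl2 ratios to sham had opposite signs in different cell classes, but the positive one rested on 1 cell. Its log2 ratio was 2.97 in neural progenitor/neuroblast-like cells, but -1.93 in microglia/macrophages and -1.64 in oligodendrocyte-like cells. In the oligodendrocyte-like cells of day 7 Ccl2 stood at 4.4% of the microglia/macrophage level, inside the 4.1% to 5.5% of the 8 microglia genes. In those of sham it stood at 3.6%, above the 2.1% to 3.0% of the same genes. How much of it was free RNA was not tested. The difference between classes was not tested either, with 1 library per group. In the neural progenitor/neuroblast-like cells 547 of 576 UMIs came from 1 cell, and without it the level was 15.9 CPM, below the 38.5 CPM of sham (14 UMIs).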

How the results depend on the processing

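With a single library per group, no result has a replicate check, and depth, library and time cannot be told apart. No paired analysis was possible because each group had 1 library. Of the 20 ratios of the 5 genes to sham in microglia/macrophages, all 20 kept their direction with called doublets kept, at most 10% mitochondrial UMIs, the members among the variable genes or means over cells. At resolution 2, with at least 1000 UMIs per cell, or with dendritic cell-like clusters joined (added after the data had been seen), 19 did so, and 18 with TMM scaling or microglia-like clusters alone. With TMM scaling the day 3 ratio of Ccl2 turned to 0.21 and that of Ccl12 to 0.0085; in microglia-like clusters alone Ccl12 at day 3 was 0.0276 and Ccr2 -1.28, and Ccr2 at day 3 was -0.13 with at least 1000 UMIs. Day 1 members at least 2-fold lower became 1 with at least 1000 UMIs and 1 in microglia-like clusters alone, as did those of day 3 in microglia-like clusters alone, 1. At day 7, 3 were at least 2-fold higher with TMM scaling, where 9.24% of 8282 genes were higher and 5.63% lower. With at least 1000 UMIs, 2 were at least 2-fold lower at day 7. Shares over all genes are not given for the settings with at least 1000 UMIs or microglia-like clusters alone, so their member counts have no background. Without the filter on low genes, medians turned to -1.14 for receptors, -0.29 for other CC chemokines and 0.0458 for adhesion at day 1, -3.15 for receptors and -0.49 for other CC chemokines at day 3, -2.37 for receptors at day 7, and -0.17 for those and 0.0625 for adhesion at day 14. With TMM scaling they turned to 0.17 for receptor signalling at day 3, 0.0496 for other CC chemokines and 0.32 for NF-kB at day 7, and 0.58 for receptors (Ccr1 alone) and 0.77 for adhesion at day 14. These follow from the shift of all ratios by scaling, or from the low genes let in; for the others the cause was not tested. The Ccl8 ratio at day 1 was 0.45 with at least 1000 UMIs, against 3.77, since sham had 1 UMI.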

Other observations

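The 5 genes differed in how evenly microglia/macrophages carried them. At day 14, 6.50% of the cells held 50% of the Ccl12 UMIs, 3.92% those of Ccl2, 1.70% those of Ccr2, 0.832% those of Ccl7 and 0.780% those of Ccl8. The day 1 library was more even for Ccl12 and Ccl2, where 14.3% and 8.71% of the cells held 50%, against 4.05% and 3.81% in sham. Few UMIs per cell by themselves narrow such shares, so libraries and genes of unequal depth are not comparable in full. Dendritic cell-like cells with Ly6c2 but no Mrc1 held more Ccr2 than those with neither, 504 CPM in 58 cells against 235 in 202 at day 7. Among T/NK cell-like cells at day 7, Ccr2 stood at 140 CPM (115 to 169) with Cd8a only, 95.3 (70.5 to 126) with Cd4 only and 184 CPM with neither, and the intervals of the first 2 overlapped.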
